A study of Mus musculus with 9 samples.

Results

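The genes described here encode the subunits of the mitochondrial respiratory chain (complexes I to IV) and of ATP synthase (complex V) that are made from nuclear DNA. They were found by symbol: Nduf genes with a letter a, b, c, s, v or ab and a number, Sdha to Sdhd, all Uqcr genes, Cyc1, Cox4 to Cox8 genes and Atp5 genes, without pseudogene entries. Of 48679 names listed in the count table, 85 matched, and 83 of these had at least 10 counts in at least 3 samples, as did 17129 of all names. By complex they were 37 genes of complex I, 4 of complex II, 9 of complex III, 16 of complex IV and 17 of complex V. The other matching names were Cox7b2, with 0 to 2 counts per sample, and Cox8c, listed at 0 in every sample.

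Oxidative phosphorylation passes electrons from NADH (complex I) and succinate (complex II) through complex III and cytochrome c to oxygen at complex IV, and ATP synthase uses the proton gradient built up on the way. The subunits come from both genomes, since the core of complexes I, III, IV and V is partly encoded in mitochondrial DNA, while complex II is entirely nuclear-encoded. Photoreceptors hold densely packed mitochondria in their inner segments, and the retina is known for a high rate of oxygen use. Some complex IV subunits exist as isoforms of separate genes, of which Cox4i2 is known from lung, pericytes and the response to low oxygen and Cox6a2, Cox7a1 and Cox8b from striated muscle.

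RNA was sequenced from retinas of C57BL/6J mice, a wild-type inbred strain, 12 weeks old. All groups had 3 samples, each a pool of 6 retinas from as many mice, so n counts pools. RVO and control mice received eosin Y (200 mg/kg), a photosensitizer, and laser spots of 50 µm at 50 mW for 2.5 s. In RVO eyes the laser was aimed at all veins until they were occluded, which took several applications per vein; in the fellow eyes (control) the same scheme was applied between the large vessels. Retinas were taken at d2, and untreated mice had neither eosin nor laser, so that laser damage is common to RVO and control eyes. The labels do not say which pools share mice.

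Between 21022997 and 28993921 reads were counted per RVO sample, against 18897218 to 23419497 per control and 12377572 to 15245869 per untreated sample. Levels are given as CPM, counts relative to a library total of 1000000, scaled by TMM factors from 1.049 to 1.083 for RVO, from 1.02 to 1.047 for control and from 0.8898 to 0.9183 for untreated samples. A gene was called when edgeR's quasi-likelihood test gave a Benjamini-Hochberg adjusted p under 0.01 over all genes tested. The samples held RNA of rods, the main cell type of the mouse retina, but less after laser treatment: summed levels of 11 rod markers were 58500 to 60800 CPM in untreated, 37000 to 43700 CPM in control and 29800 to 31200 CPM in RVO eyes. In these bulk samples, fewer cells of a type and less RNA per cell cannot be told apart. Lens markers were higher in all laser-treated pools than in untreated ones (2.71 to 21.3 CPM), with 132, 4080 and 336 CPM in the RVO replicates 1 to 3 and 2160, 267 and 151 CPM in the control replicates.

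Laser treatment was followed by higher levels of more subunits than it was by lower ones, both in RVO and in control eyes. Of 82 members tested between RVO and untreated eyes, 36 were called higher (43.9%) and 8 lower, where 27.4% of all tested genes were higher and 24.6% lower. In control eyes, 44 of 81 members tested against untreated eyes were higher (54.3%) and 11 lower, beside 27.2% and 25.2% of all genes. The median log2 fold change was 0.23 in RVO and 0.31 in control eyes, against 0.01 over all genes in each comparison. The values of the groups did not overlap for 46 members that were higher and 18 that were lower in RVO eyes, beside 37.2% and 36% of all genes, and for 48 and 16 in control eyes, beside 35.6% and 34.2%. Without RVO replicate 2, the pool with the most lens RNA, 38 members were higher and 11 lower in RVO eyes, beside 33.3% and 31% of all genes. That pool differed from RVO replicates 1 and 3 in other markers too. Its bipolar markers summed to 711 CPM against 348 and 440 CPM, and its neutrophil markers to 46.9 CPM against 100 and 105 CPM. The part of each in the calls was not tested. Without control replicate 1, the control pool with the most lens RNA, 43 members were higher and 9 lower in control eyes, beside 25.4% and 22.8%. Both comparisons share the untreated samples, so they do not count as independent observations.

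These counts depended on how the samples' trends with GC content and transcript length were treated. When each sample's smooth trend was removed, 14 members rose and 26 fell in RVO against untreated eyes, beside 18.4% and 25.6% of all genes. In control eyes, 17 were higher and 23 lower, beside 13.7% and 26.2%. The medians were then -0.10 and -0.01, against -0.09 and -0.10 over all genes. Scaling by library size alone shifted the median of all genes to 0.22 and 0.19. By this scaling 47 members were higher and 2 lower in RVO eyes, 56 and 4 in control eyes, but the shares of all genes were not counted. With the trends kept, the medians of the subunits thus lay above those of all genes. With the trends removed, the median lay close to that of all genes in RVO eyes (-0.10 against -0.09). In control eyes it lay above it (-0.01 against -0.10). The part of GC content and length in these shifts was not tested.

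**Figure D1:**
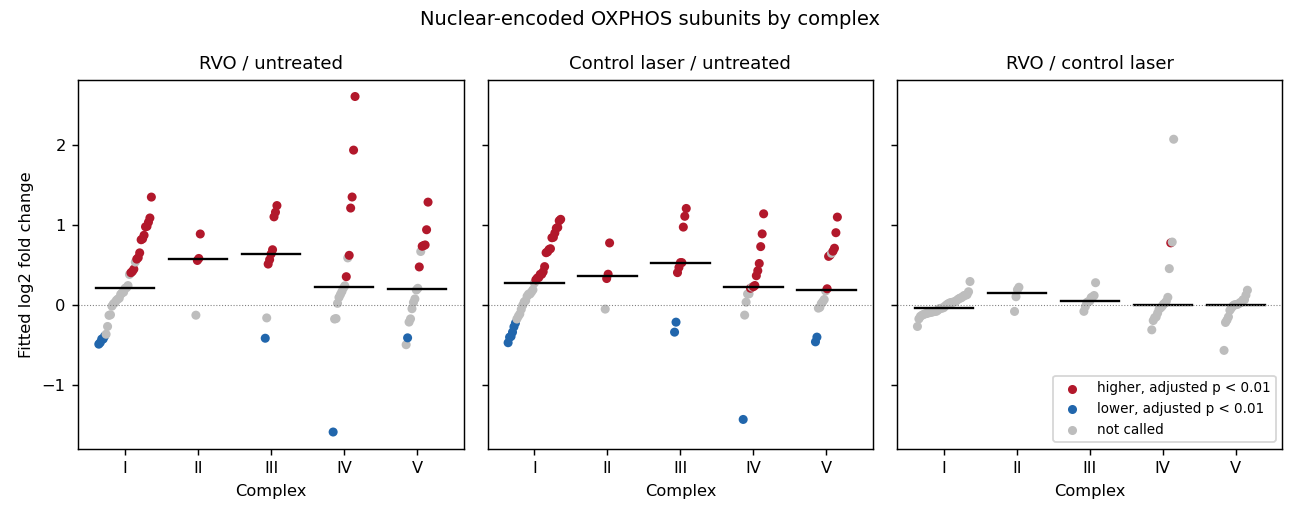
Fitted log2 fold change (vertical axis) of each subunit, arranged by complex (horizontal axis), in the comparisons RVO against untreated, control laser against untreated and RVO against control laser. Each point is 1 gene, coloured by its call, and black lines are the medians of a complex; in the third panel 1 point, Cox4i2, is called. Over all subunits the medians in the first and second panel are 0.23 and 0.31, and -0.10 and -0.01 when the trends with GC content and length are removed. Those of all tested genes are 0.01 in each panel, and -0.09 and -0.10 with the trends removed.

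Complex I, which oxidizes NADH, had 14 subunits higher and 5 lower in RVO eyes against untreated ones, and 18 higher and 6 lower in control eyes. Without the GC and length trends it had 4 higher and 16 lower in RVO, and 7 and 13 in control eyes. For this and the other complexes, the shares of all genes were 27.4% higher and 24.6% lower in RVO, and 27.2% and 25.2% in control eyes. Without the trends they were 18.4% and 25.6%, and 13.7% and 26.2%. The largest rise of complex I in RVO eyes was that of Ndufa3, an accessory subunit, at chr7:3617373-3620327 (GRCm38). Its CPM were 78.6, 73.3 and 85.9 in RVO, 57.8, 69.7 and 67.7 in control and 33.9, 31.2 and 30.8 in untreated eyes, so that both laser-treated groups lay above the untreated one without overlap. Its log2 fold change was 1.34 in RVO (SE 0.09, adjusted p = 1.62e-05) and 1.05 in control eyes (adjusted p = 5.12e-07), and it stayed called with the trends removed (0.72 and 0.54). Ndufs5, another accessory subunit, had the largest rise in control eyes, from 5.43 to 6.36 CPM in untreated to 10.9 to 13.0 CPM in control eyes (log2 fold change 1.06, adjusted p = 1.01e-05), and it rose by 0.98 in RVO eyes (adjusted p = 0.0004); with the trends removed, the log2 fold changes were 0.60 and 0.38, the latter with an adjusted p of 0.0403.

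The core subunits of complex I, which carry its flavin, iron-sulfur clusters and quinone site, moved in different directions. Ndufs1, the largest subunit with iron-sulfur clusters, had 114, 116 and 119 CPM in RVO eyes, 128, 125 and 120 in control eyes and 176, 155 and 150 in untreated eyes. It was lower after laser treatment without overlap, by 0.43 in RVO (adjusted p = 0.00157) and by 0.34 in control eyes (adjusted p = 0.000419) on the log2 scale. Ndufv2, which holds a cluster beside the flavin, likewise fell by 0.43 and 0.48 (adjusted p = 0.000993 and 2.54e-05). It had 91.1 to 94.6 CPM in RVO eyes, 85.5 to 94.3 in control eyes and 122 to 137 in untreated eyes. Ndufv1, which binds NADH and the flavin next to Ndufv2, rose instead, from 122 to 129 CPM in untreated to 188 to 199 CPM in RVO eyes and 193 to 208 in control eyes (log2 fold changes 0.65 and 0.69, adjusted p = 7.8e-05 and 4.7e-07). Ndufs7 rose by 0.59 and 0.66 (adjusted p = 0.000683 and 6.93e-06). The log2 fold change of Ndufv1 was -0.03 in RVO and 0.13 in control eyes with the trends removed, and that of Ndufs7 -0.36 and -0.17, whereas Ndufs1 and Ndufv2 had -0.29 and -0.39 in RVO and -0.18 and -0.34 in control eyes.

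Of the other core subunits, Ndufs8 was called in control eyes (0.41, adjusted p = 0.00227) but had an adjusted p of 0.0141 in RVO eyes (log2 fold change 0.38). The call in control eyes was lost without untreated replicate 1 (adjusted p = 0.0133) or 2 (adjusted p = 0.0171), and the log2 fold changes were -0.25 and -0.43 with the trends removed. Ndufs3 was not called in either group, with log2 fold changes of 0.07 in RVO and -0.01 in control eyes, but it was called lower with the trends removed (-0.51 and -0.45). Ndufa4, which keeps a complex I symbol but is now placed in complex IV, had 180 to 202 CPM in RVO eyes, 204 to 217 in control eyes and 187 to 208 in untreated eyes and was not called.

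Accessory subunits of complex I that fell were Ndufa10, Ndufa6 and Ndufb2 in both laser-treated groups and Ndufa5 in control eyes. Ndufa10, which resembles nucleoside kinases, had 118 to 123 CPM in RVO eyes, 123 to 133 in control eyes and 163 to 175 in untreated eyes. It fell by 0.47 and 0.40 on the log2 scale (adjusted p = 0.000358 and 3.26e-05) and, with the trends removed, by 0.75 and 0.61. Ndufb2 fell by 0.50 in RVO eyes (adjusted p = 0.00352), the lowest value of complex I there, and Ndufv2 had the lowest value in control eyes. In RVO eyes the calls of Ndufa6 (-0.39, adjusted p = 0.00949) and Ndufb2 were lost when some pools were left out: without 1 of RVO replicates 1 and 3 or any untreated replicate the adjusted p of Ndufa6 was between 0.0182 and 0.0389, and without RVO replicate 3 or any untreated replicate that of Ndufb2 was between 0.0112 and 0.0167. In control eyes, Ndufb2 (-0.23, adjusted p = 0.00347) lost its call without untreated replicate 2 or control replicate 1 (adjusted p = 0.0126 and 0.0165), while Ndufa6 fell by 0.28 (adjusted p = 0.00173). Ndufa5 fell by 0.41 in control eyes (adjusted p = 0.000492) and had -0.37 in RVO eyes (adjusted p = 0.0119, and 0.00123 without RVO replicate 2).

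Complex II, succinate dehydrogenase, also works in the tricarboxylic acid cycle. The iron-sulfur subunit Sdhb and the membrane anchors Sdhc and Sdhd were higher in both laser-treated groups, and the flavin subunit Sdha was not called in either. Sdhc had 119, 126 and 128 CPM in RVO eyes, 115, 116 and 118 in control eyes and 59.9, 67.4 and 79.0 in untreated eyes. The log2 fold changes of Sdhc were 0.88 and 0.77 (adjusted p = 0.00017 and 3.94e-06), and 0.66 and 0.61 with the trends removed, still called. Sdhd rose by 0.58 and 0.38 (adjusted p = 0.000515 and 0.000412), with 0.36 and 0.27 after removal. Sdhb rose by 0.55 in RVO and by 0.33 in control eyes (adjusted p = 0.000254 and 0.000399), but had -0.10 and -0.18 without the trends. Sdha, the most abundant of these in CPM, had 360 to 376 CPM in RVO eyes, 392 to 396 in control eyes and 404 to 424 in untreated eyes, without overlap between the groups but with small differences (log2 fold changes -0.13 and -0.06, adjusted p = 0.0806 and 0.352).

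Complex III, which passes electrons from ubiquinol to cytochrome c, had a positive median with and without the trends. So had complex II, with 0.564 in RVO and 0.352 in control eyes, and 0.135 and 0.132 with the trends removed. Of the 9 subunits of complex III, 7 rose and 1 fell in RVO against untreated eyes, and 7 were higher and 2 lower in control eyes, with medians of 0.63 and 0.52. With the trends removed, 3 were higher and 1 lower in RVO (median 0.33), and 4 and 1 in control eyes (median 0.15). Summed over the complex, its level was 991, 1020 and 1058 CPM in RVO eyes, 947, 974 and 1027 in control eyes and 786, 763 and 829 in untreated eyes, 29.1% and 24.0% above the untreated mean.

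Cyc1, cytochrome c1, which carries the haem that reduces cytochrome c, lies at chr15:76343523-76346260 and had 134, 139 and 142 CPM in RVO eyes, 131, 131 and 144 in control eyes and 53.8, 58.1 and 78.6 in untreated eyes. All laser-treated pools lay above all untreated ones, with log2 fold changes of 1.15 (SE 0.13, adjusted p = 0.000165) and 1.10 (adjusted p = 2.44e-06). Uqcr10, a small subunit at chr11:4701973-4704342, had the largest rise of the complex, from 22.5 to 32.9 CPM in untreated to 60.1 to 67.9 CPM in RVO eyes and 61.3 to 67.3 in control eyes (1.24 and 1.20, adjusted p = 0.000127 and 1.14e-06). Removal of the trends left Cyc1 at 0.51 and 0.58 and Uqcr10 at 0.46 (adjusted p = 0.01) and 0.55. Uqcrfs1, the Rieske iron-sulfur protein, rose by 0.51 and 0.52 (adjusted p = 0.000667 and 2.35e-05), and by 0.35 and 0.47 without the trends.

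The core proteins Uqcrc1 and Uqcrc2 went apart. Uqcrc1 rose by 0.63 and 0.52 (adjusted p = 0.000173 and 1.52e-05), from 164 to 188 CPM in untreated to 256 to 278 CPM in RVO eyes and 236 to 263 in control eyes, while Uqcrc2 fell by 0.22 in control eyes (adjusted p = 0.00241) and had -0.17 in RVO eyes (adjusted p = 0.0378). Neither kept its size with the trends removed: Uqcrc1 had -0.10 in each group and Uqcrc2 -0.03. The call of Uqcrc2 in control eyes was lost without control replicate 1 (adjusted p = 0.0172). Uqcrh, the hinge protein that bridges cytochrome c1 and cytochrome c, fell by 0.42 and 0.34 (adjusted p = 0.00265 and 0.000572), with 123 to 137 CPM in RVO eyes, 135 to 145 in control eyes and 165 to 196 in untreated eyes. Its adjusted p in RVO eyes was between 0.0101 and 0.013 without RVO replicate 3 or untreated replicate 1 or 2, and without the trends it had -0.73 and -0.54.

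**Figure D2:**
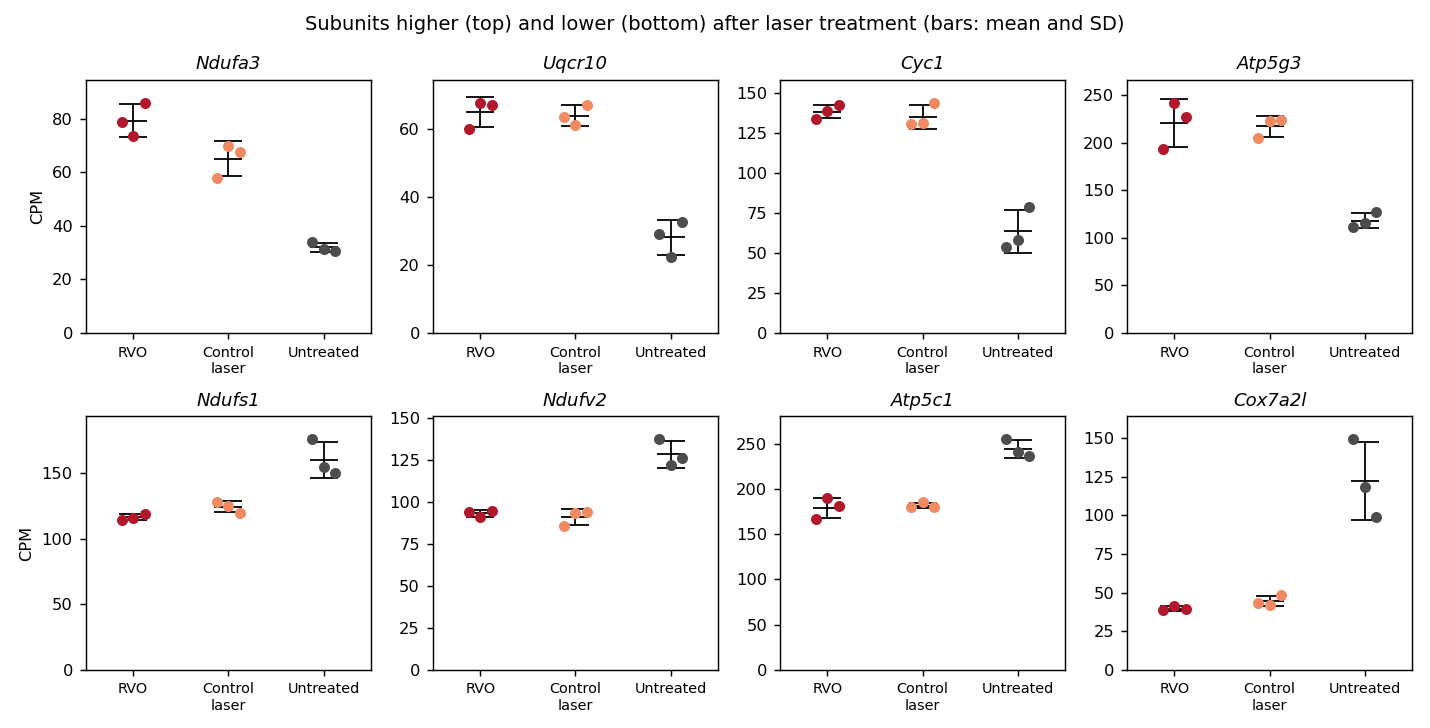
CPM (vertical axes, from 0) in each of the 3 pools per group (points; black bars are mean and SD) for 4 subunits that rose and 4 that fell after laser treatment. Cyc1 lies between 131 and 144 CPM in all laser-treated pools and at most at 78.6 CPM in untreated ones, and Cox7a2l at most at 48.3 CPM in laser-treated and at least at 99.0 CPM in untreated pools.

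Complex IV, cytochrome c oxidase, had 6 nuclear subunits higher and 1 lower of 16 tested in RVO eyes, and 9 higher and 1 lower of 15 tested in control eyes. With the trends removed it had 2 higher and 6 lower in RVO eyes, and 0 higher and 5 lower in control eyes (edgeR, with 1 higher and 6 lower at an unadjusted p under 0.05). Its summed level was 1004, 1105 and 1071 CPM in RVO eyes, 1071, 1092 and 1125 in control eyes and 1091, 978 and 1011 in untreated eyes, so that the groups overlapped. The largest fall among all members was that of Cox7a2l at chr17:83501918-83517330. It had 38.4, 41.2 and 39.3 CPM in RVO eyes, 43.0, 42.1 and 48.3 in control eyes and 149, 119 and 99.0 in untreated eyes. The log2 fold changes were -1.59 in RVO (SE 0.14, adjusted p = 5.13e-05) and -1.44 in control eyes (SE 0.12, adjusted p = 5.73e-07), and -1.85 and -1.58 without the trends. Of its 50-base words, 17.8% also occur in the annotated gene Gm6969, and the treatment of reads that match more than 1 gene is not given in the sources used here.

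The ubiquitous subunits of complex IV moved less. Cox4i1, the main isoform of the subunit that binds ATP, had 234 to 277 CPM in RVO eyes, 265 to 281 in control eyes and 215 to 253 in untreated eyes (log2 fold changes 0.13 and 0.22, adjusted p = 0.238 and 0.00953). Cox6a1 rose by 0.61 and 0.51 (adjusted p = 0.000159 and 6.77e-06) and Cox6b1 by 0.35 and 0.36 (adjusted p = 0.00418 and 0.000277). Cox5a and Cox5b, which lie on the matrix side, were not called in either group, with log2 fold changes of 0.23 and 0.16 in RVO and 0.22 and 0.13 in control eyes. Cox7a2 and Cox8a were called in control eyes (0.24 and 0.20, adjusted p = 0.00247 and 0.0051) and had 0.20 and 0.01 in RVO eyes (adjusted p = 0.0565 and 0.872), and Cox7b was not called. The testis isoform Cox6b2 had 3.99 to 4.71 CPM in untreated eyes and rose by 0.72 in control eyes (adjusted p = 0.00092), with 0.58 in RVO eyes (adjusted p = 0.0306). In control eyes, Cox4i1 lost its call without replicate 2 or 3 of either group (adjusted p 0.0181 to 0.083), Cox7a2 without untreated replicate 2 or 3 (0.0193 and 0.0155) and Cox8a without untreated replicate 1 or 2 or control replicate 1 or 3 (0.0174 to 0.0494). The call of Cox6b1 in RVO eyes was lost without RVO replicate 3 or any untreated replicate (adjusted p 0.0103 to 0.0274). Without the trends, Cox4i1 had -0.76 and -0.52, Cox6a1 -0.33 and -0.31 and Cox8a -0.92 and -0.60, all called lower, and Cox6b1 had -0.11 and 0.01.

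Complex V, ATP synthase, had 6 subunits higher and 1 lower of 16 tested in RVO eyes, and 7 higher and 2 lower in control eyes. Without the trends there were 3 higher and 3 lower, and 4 and 4. Those higher include Atp5o (0.745 and 0.704), which had no matched length and GC content and so kept its uncorrected values. Its summed level was 3148, 3329 and 3360 CPM in RVO eyes, 3217, 3259 and 3326 in control eyes and 2863, 2784 and 2876 in untreated eyes, 15.4% and 15.0% above the untreated mean. Atp5e, the epsilon subunit of the central stalk, rose most, from 34.0 to 41.0 CPM in untreated to 78.7 to 96.9 CPM in RVO eyes and 76.5 to 78.5 in control eyes (1.28 and 1.09, adjusted p = 4.07e-05 and 1.53e-07). Atp5c1, the gamma subunit of the same stalk, fell instead, with 167, 190 and 181 CPM in RVO eyes, 180, 186 and 180 in control eyes and 255, 242 and 237 in untreated eyes (-0.42 and -0.41, adjusted p = 0.00118 and 2.58e-05). Both kept their direction and call without the trends, Atp5e with 0.56 and 0.50 and Atp5c1 with -0.58 and -0.45.

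The catalytic subunits of ATP synthase had the highest CPM of all members, not corrected for length. Atp5b (beta) had 1258 to 1288 CPM in RVO eyes, 1250 to 1296 in control eyes and 1113 to 1169 in untreated eyes. Atp5a1 (alpha) had 770 to 823 CPM, 798 to 812 CPM and 701 to 722 CPM in the same order. Neither group of laser-treated pools overlapped with the untreated one, but the differences were small, with log2 fold changes of 0.18 and 0.17 for Atp5b (adjusted p = 0.0265 and 0.0184) and 0.20 and 0.20 for Atp5a1 (adjusted p = 0.0174 and 0.0061). The call of Atp5a1 in control eyes was lost whichever pool of its comparison was left out (adjusted p 0.0105 to 0.0508). Atp5s, a factor with a coupling role, fell by 0.47 in control eyes (adjusted p = 0.00174) and had -0.50 in RVO eyes (adjusted p = 0.0178, and 0.0036 without RVO replicate 2); without the trends it had 0.01 in RVO and -0.01 in control eyes.

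The c-ring of ATP synthase, which turns with the flow of protons, is made from 3 genes that encode the same mature protein. Levels per length are counts per kilobase of transcript, scaled to a total of 1000000 over all genes with a known length. Atp5g3 was the most abundant by this measure, with 344 in untreated eyes against 8.99 for Atp5g1 and 3.76 for Atp5g2. Its CPM were 193, 242 and 227 in RVO, 205, 223 and 224 in control and 111, 116 and 127 in untreated eyes, and it rose by 0.94 and 0.90 (adjusted p = 9.68e-05 and 2.64e-07), or by 0.58 and 0.67 without the trends. Atp5g1 was not called (-0.22 and -0.04), so that its share of the pair per length was 1.17% ± 0.0603 in RVO, 1.36% ± 0.132 in control and 2.56% ± 0.244 in untreated eyes (SD, n = 3). Atp5g2 shares 87.4% of its 50-base words with other annotated genes and had 11 to 61 counts per sample, so its value (0.66 and 0.64, adjusted p = 0.0423 and 0.0373) is uncertain.

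**Figure D3:**
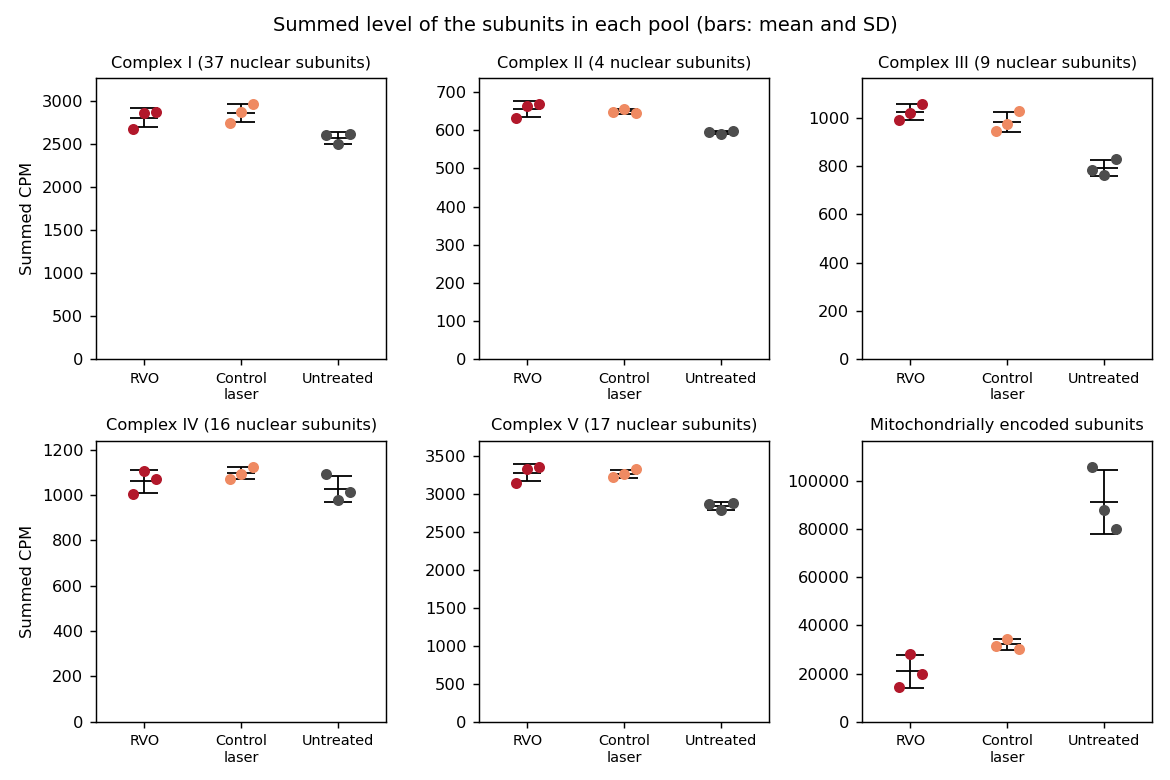
Summed CPM (vertical axes, from 0) of the nuclear subunits of each complex and of the mitochondrially encoded subunits in each of the 3 pools per group (points; black bars are mean and SD). Complex III lies between 947 and 1058 CPM in laser-treated and between 763 and 829 CPM in untreated pools, while the mitochondrially encoded subunits lie between 80000 and 106000 CPM in untreated and between 14600 and 34500 CPM in laser-treated pools.

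The comparison of RVO with control eyes asks what vein occlusion adds to laser damage. Cox4i2 was higher in RVO eyes, and no other of the 83 members was called, so 1.2% were higher beside 2.7% of all genes. None was lower, beside 0.634% of all genes, and 12 members had an unadjusted p under 0.05 in either direction (edgeR). DESeq2 called 3 higher and 1 lower, but its shares of all genes were not counted. With the trends removed, edgeR called 2 higher (Cox4i2 and Cox6a2) and 0 lower, beside 4.81% and 4.13% of all genes. The median log2 fold change of the members was 0.00 and their median absolute log2 fold change 0.09, against 0.28 for all genes, with a median standard error of 0.07. For 71 of the 83 members the log2 fold change lay within 0.2 of 0. The pools did not overlap for 13 members that were higher and 11 that were lower in RVO eyes, beside 26.5% and 25.9% of all genes. At an adjusted p under 0.05, 5 members were higher (Sdhb, Uqcrq, Cox4i2, Cox6a2 and Cox8b) and 2 lower (Cox6c and, named after its value was seen, Atp5sl), beside 17.5% and 17.1% of all genes. Atp5sl is named Dmac2 in GENCODE vM21, and its place in complex V rests on its symbol alone. Summed over all members, the level was 8451, 8981 and 9032 CPM in RVO eyes, 8633, 8852 and 9090 in control eyes and 7941, 7613 and 7937 in untreated eyes, so that RVO and control eyes overlapped and both lay above untreated eyes.

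Cox4i2, at chr2:152754173-152765037, had 56.5, 47.1 and 48.4 CPM in RVO eyes, 27.7, 29.7 and 31.9 in control eyes and 19.9, 24.3 and 23.1 in untreated eyes. The groups did not overlap, with RVO highest and untreated lowest. It was 0.77 higher on the log2 scale in RVO than in control eyes (1.71-fold, SE 0.10, adjusted p = 0.00758). The adjusted p was 0.0148 without RVO replicate 1, 0.000114 without RVO replicate 2, 0.0401 without RVO replicate 3 and 0.0455, 0.0235 and 0.0507 without control replicates 1, 2 and 3, with log2 fold changes of 0.67 to 0.82, so the call rested on all pools but RVO replicate 2. With the replicate number as a block the log2 fold change was 0.77 and not called (adjusted p = 0.0314), though the labels do not say which pools share mice. With the trends removed the log2 fold change was 0.67 (adjusted p = 0.00757). Against untreated eyes it was 1.21 in RVO (adjusted p = 5.87e-05) and 0.42 in control eyes (adjusted p = 0.0015), but without the trends 0.36 (adjusted p = 0.0236) and -0.27, so that the rise in control eyes depended on the correction.

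Without RVO replicate 2, 3 members were called higher (Cox4i2, Cox6a2 and Uqcrq) and 3 lower (Cox6c, Cox8a and Ndufb2), beside 17.1% and 19.3% of all genes. Ndufb2 had 35.9, 47.3 and 42.5 CPM in RVO eyes and 50.1, 50.4 and 51.6 in control eyes, where the second RVO pool lay closest to the control pools (-0.27, adjusted p = 0.0685, and 0.00376 without it). The small complex III subunit Uqcrq measured 115, 118 and 127 CPM in RVO eyes against 95.0, 102 and 102 CPM in control eyes (0.27, adjusted p = 0.0214, and 0.00835 without RVO replicate 2). Cox6c of complex IV measured 68.0, 78.3 and 79.3 CPM in RVO eyes against 95.6, 90.8 and 94.9 CPM in control eyes (-0.32, adjusted p = 0.0198, and 0.00284 without that pool). Both were separated between RVO and control eyes in all pools, as were 26.5% of all genes upward and 25.9% downward. Against untreated eyes, Uqcrq rose by 0.69 in RVO and by 0.40 in control eyes (adjusted p = 0.000727 and 0.00124), the latter with an adjusted p of 0.013 without untreated replicate 2, and Cox6c was not called.

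The isoforms of complex IV that are known from striated muscle were higher in RVO than in control pools as well. They did not pass the threshold in the edgeR test with the trends kept. With the trends removed, edgeR called Cox6a2 (log2 fold change 1.99, adjusted p = 0.00898). Over 14 alternatives by edgeR or DESeq2, the adjusted p ranged from 0.000129 to 0.0567 for Cox6a2 and from 0.00607 to 0.0786 for Cox8b. Cox6a2 had 2.55, 1.40 and 2.20 CPM in RVO eyes and 0.543, 0.657 and 0.293 in control eyes, with 33 to 80 and 7 to 13 counts per sample, and untreated samples had 1 to 8 counts. Its log2 fold change was 2.07 (SE 0.36, adjusted p = 0.011, and 0.000282 without RVO replicate 2). Cox8b had 5.74, 9.05 and 6.16 CPM in RVO eyes, 3.99 to 4.10 in control eyes and 1.36 to 2.21 in untreated eyes, with a log2 fold change of 0.78 between RVO and control eyes (adjusted p = 0.0231). Cox7a1 had 2.97 to 3.79 CPM in RVO eyes, 2.13 to 2.80 in control eyes and 1.18 to 1.56 in untreated eyes (0.45, adjusted p = 0.102). In none of these did RVO and control pools overlap, but 26.5% of all genes were likewise higher in RVO eyes without overlap. Against untreated eyes, Cox8b rose by 1.93 in RVO and 1.13 in control eyes (adjusted p = 0.000364 and 0.000286), Cox7a1 by 1.34 and 0.88 (adjusted p = 0.000919 and 0.00498), and Cox6a2 by 2.60 in RVO eyes (adjusted p = 0.00191); Cox6a2 was not tested in control eyes for its low counts. The call of Cox6a2 was lost without untreated replicate 1 (adjusted p = 0.0115) and that of Cox7a1 in control eyes without control replicate 2 or 3 or any untreated replicate (adjusted p 0.0124 to 0.0231). Without the trends the log2 fold changes against untreated eyes were 2.07 for Cox6a2, 1.13 and 0.45 for Cox8b and 0.61 and 0.27 for Cox7a1.

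As shares of an isoform pair, computed from counts per kilobase of transcript, these genes remained the minor forms. The share of the testis isoform Cox6b2 in Cox6b2 and Cox6b1 overlapped between RVO and control eyes (5.34% ± 0.975 and 5.85% ± 0.779, SD, n = 3). Cox4i2 made up 20.0%, 15.0% and 16.8% of Cox4i2 and Cox4i1 in RVO, 9.75%, 10.1% and 10.5% in control and 7.53%, 10.5% and 8.97% in untreated eyes, so that RVO eyes stood apart while control and untreated eyes overlapped. The share of Cox8b in Cox8b and Cox8a was 8.28% ± 1.49 in RVO, 4.40% ± 0.0534 in control and 2.32% ± 0.492 in untreated eyes (SD, n = 3). Cox7a1 reached 5.13% ± 0.879, 3.69% ± 0.539 and 2.38% ± 0.422 of Cox7a1 and Cox7a2. Cox6a2 stayed at 1.43% ± 0.434, 0.373% ± 0.142 and 0.351% ± 0.247 of Cox6a2 and Cox6a1. With 3 against 3 pools an exact permutation test cannot go below 0.1, so no test of the shares is given.

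**Figure D4:**
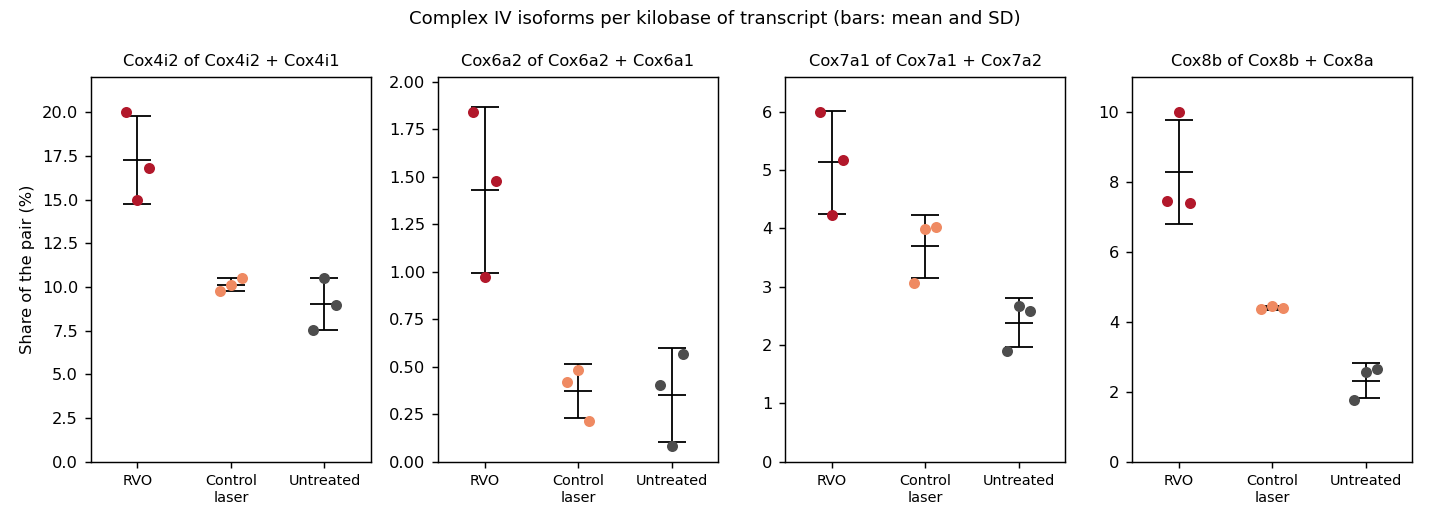
Share (%, vertical axes, from 0) of Cox4i2 and the 3 complex IV isoforms known from striated muscle in their isoform pair, computed per kilobase of transcript, in each of the 3 pools per group (points; black bars are mean and SD). For each of these pairs the RVO pools lie above the control pools; Cox4i2 is between 15.0% and 20.0% in RVO and between 9.75% and 10.5% in control eyes.

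Cell types known to express these isoforms were measured beside them. Summed levels of 7 pericyte markers such as Rgs5 were 43.3 to 75.4 CPM in RVO eyes, 103 to 110 in control eyes and 91.2 to 105 in untreated eyes, lowest in RVO eyes. Between RVO and control eyes, edgeR called 0 of these markers, with 5 lower at an unadjusted p under 0.05, and DESeq2 called 5 lower. Skeletal muscle markers summed to 11.2 to 21.5 CPM in RVO eyes, 27.5 to 33.1 in control eyes and 25.1 to 28.2 in untreated eyes, and of the 5 tested between RVO and control eyes edgeR called 0 and DESeq2 1 lower, with 1 lower at an unadjusted p under 0.05. None of the muscle markers was at 0 in all pools of a group. Neutrophil markers summed to 46.9 to 105 CPM in RVO eyes, 8.45 to 24.9 in control eyes and 0.547 to 1.21 in untreated eyes and monocyte and macrophage markers to 510 to 759, 231 to 306 and 80.9 to 97.3 CPM. The part of blood-derived cells in the isoform values was not tested. Other cell types were lower in RVO than in control eyes too. Bipolar markers summed to 348 to 711 CPM in RVO and 1010 to 1110 in control eyes, and ganglion cell markers to 320 to 684 and 1030 to 1090. Amacrine markers had 355 to 653 and 880 to 942 CPM, and endothelial ones 143 to 262 and 314 to 351. Those of microglia and retinal pigment epithelium overlapped. The part of cell composition in these comparisons was not tested.

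Genes linked to the respiratory chain under low oxygen were compared as a list of 10 that includes Cox4i2. Between RVO and control eyes, 2 of 9 tested were called higher and 0 lower, beside 2.7% and 0.634% of all genes (6 higher and 1 lower at an unadjusted p under 0.05, 4 and 1 by DESeq2), with a median log2 fold change of 0.40. Ndufa4l2, a paralog of Ndufa4 known as a target of hypoxia-inducible factor, had 19.0 CPM in RVO eyes, 3.40 in control eyes and 1.80 in untreated eyes on average, with a log2 fold change of 2.48 between RVO and control eyes (adjusted p = 0.00717). Per length it made up 6.16%, 4.90% and 2.93% of Ndufa4l2 and Ndufa4 in RVO but 0.692% to 0.971% in control and 0.287% to 0.640% in untreated eyes. Against untreated eyes, 3 genes of the list were higher and 1 lower in RVO, beside 27.4% and 24.6% of all genes. In control eyes 2 were higher and 4 lower, beside 27.2% and 25.2%. Without the trends the counts against untreated eyes were 1 and 2, and 1 and 4, beside 18.4% and 25.6%, and 13.7% and 26.2% of all genes. Fundc1, a receptor for removal of mitochondria, had the largest fall there, by 1.04 and 0.72 on the log2 scale (adjusted p = 5.03e-05 and 8.14e-07).

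Subunits made from mitochondrial DNA were lower after laser treatment. Of 13 such genes, 8 had enough counts to be tested, and all 8 were lower in RVO and in control than in untreated eyes, with median log2 fold changes of -2.19 and -1.61. Of all tested genes, 24.6% were called lower in RVO and 25.2% in control eyes. Removal of the trends left 7 of the 8 lower in each group, with medians of -1.49 and -0.95, beside 25.6% and 26.2% of all genes. Summed levels were 14600, 28300 and 20000 CPM in RVO eyes, 31600, 34500 and 30300 in control eyes and 106000, 87800 and 80000 in untreated eyes. The groups did not overlap, and RVO replicate 2 lay closest to the control pools. The subunit of complex I mt-Nd1 had on average 3029 CPM in RVO eyes, 5303 in control eyes and 14650 in untreated eyes, and mt-Nd6, another one, which had the largest fall, had 950.3, 1453 and 5818 CPM. Between RVO and control eyes the median was -0.59, with 0 of 8 called by edgeR and 4 by DESeq2, and 7 lower at an unadjusted p under 0.05. Of the 5 other genes of the list, mt-Co2, mt-Co3 and mt-Nd4l are listed at 0 in every sample, mt-Atp6 in all but 1 and mt-Atp8 in all but 2. The libraries were made from poly-A RNA, and these mitochondrial transcripts took up a larger part of the untreated than of the laser-treated libraries.

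Genes that build the complexes were not uniform. Of 45 assembly factors tested, 17 were higher and 5 lower in RVO, and 15 and 8 in control eyes against untreated ones, with medians of 0.19 and 0.10. The shares of all genes were 27.4% and 24.6% in RVO, and 27.2% and 25.2% in control eyes. Without the trends 8 factors were higher and 6 lower in RVO, beside 18.4% and 25.6% of all genes. In control eyes these were 9 and 7, beside 13.7% and 26.2%. Cox20, a chaperone of complex IV, had the largest rise, by 2.78 in RVO and 2.26 in control eyes (adjusted p = 0.000329 and 0.000197), but from only 0.306 CPM in untreated eyes. The largest falls were those of Sdhaf3, a factor for complex II, by 0.87 in RVO eyes (adjusted p = 0.000219) and of Lyrm7, a factor for the Rieske protein, by 0.70 in control eyes (adjusted p = 0.00018). Without the trends Sdhaf3 had -0.17 in RVO eyes (adjusted p = 0.2) and Lyrm7 -0.44 in control eyes (adjusted p = 0.00531). Ndufaf6, which acts in complex I assembly, was called between RVO and control eyes, with 19.5 against 9.71 CPM (1.01, adjusted p = 0.00977).

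Of 15 regulators of mitochondrial biogenesis tested, 5 were higher and 4 lower in RVO, beside 27.4% and 24.6% of all genes, and 4 and 6 in control eyes, beside 27.2% and 25.2%. Without the trends these were 3 and 3, and 2 and 6, beside 18.4% and 25.6%, and 13.7% and 26.2% of all genes. Further, edgeR called 0 between RVO and control eyes (6 higher and 3 lower at an unadjusted p under 0.05, and 2 each by DESeq2). The coactivator Ppargc1a fell from 95.9 to 42.4 CPM in RVO eyes and 51.0 in control eyes, by 1.15 and 0.89 on the log2 scale (adjusted p = 4.42e-05 and 4.39e-07), and Ppargc1b by 1.26 and 0.72. Esrra, a nuclear receptor that works with these coactivators, rose by 1.24 and 1.32 (adjusted p = 0.00023 and 3.15e-06). Pprc1, a related coactivator, rose by 1.48 in RVO and 0.62 in control eyes. Without the trends its values were 1.11 and 0.20, the latter with an adjusted p of 0.0718.

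Of 17 genes of the tricarboxylic acid cycle and pyruvate dehydrogenase, 3 were higher and 4 lower in RVO, and 2 and 4 in control eyes. The shares of all genes were 27.4% and 24.6% in RVO, and 27.2% and 25.2% in control eyes. Without the trends the shares were 18.4% and 25.6%, and 13.7% and 26.2%. Of the 17 cycle genes, 1 was then higher and 7 lower in RVO, and 2 and 5 in control eyes. Among these, Sucla2, the ATP-forming subunit of succinyl-CoA ligase, fell by 0.82 and 0.67 and Suclg2, the GTP-forming one, rose by 1.88 and 0.85. Suclg2 was also higher in RVO than in control eyes (1.02, adjusted p = 0.00679). Among 8 genes of electron carriers and of phosphate and ADP exchange, 3 were higher and 1 lower in RVO, and 2 and 1 in control eyes. Of these, Slc25a3, the phosphate carrier, rose by 0.73 and 0.62, and Atpif1, the inhibitor of ATP synthase, fell by 0.62 and 0.51. The shares of all genes beside these counts and those for import are the ones given for the cycle. Of 16 genes of protein import, 8 were higher and 4 lower in RVO, and 6 and 3 in control eyes, with the largest rise in Timm13 (1.22 and 0.98). Without the trends 3 were higher and 3 lower in RVO, and 2 and 4 in control eyes, and Timm13 had 0.22 and 0.06 (adjusted p = 0.0644 and 0.438). Between RVO and control eyes, edgeR called 0 genes of the lists for carriers and import, with 1 and 7 at an unadjusted p under 0.05; DESeq2 called 0 carriers and 1 import gene in each direction.

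**Figure D5:**
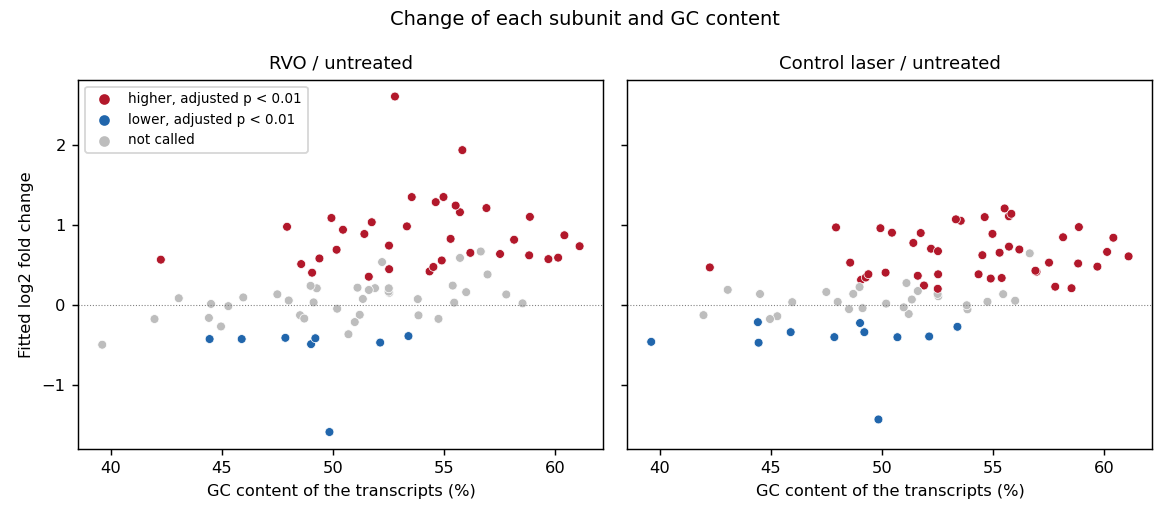
Fitted log2 fold change (vertical axis) of each subunit against the GC content of its transcripts (%, horizontal axis) for RVO and for control laser against untreated eyes, coloured by call. Subunits called lower have a median GC content of 49.1% and those called higher of 54.5% in RVO eyes. With the trends removed, 14 subunits are called higher and 26 lower in RVO eyes, and 17 and 23 in control eyes. The shares of all genes are then 18.4% and 25.6%, and 13.7% and 26.2%.

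What the members share beside their function includes short transcripts and a high level. Their median transcript length was 745 bases against 2620 bases for all tested genes, and their median GC content 52.1% against 50.5%. Over 81 members the log2 fold change in RVO against untreated eyes rose with GC content (Spearman's correlation 0.53) and fell with length (-0.39), as it did over all tested genes (0.43 and -0.17). In control eyes the values were 0.54 and -0.39 for 80 members and 0.61 and -0.15 for all genes. These are descriptions across genes of the same libraries. By counts per kilobase scaled to a total of 1000000, the median member had 145 in untreated eyes against 14.5 for all ranked genes. Of 82 members, 54 lay above the 90th percentile. Atp5b was highest (1248), followed by Ndufa4 (885.8) and Uqcrh (783.6), and Cox6a2 was lowest (1.04). Of the members, 36 share no 50-base word with another annotated gene and 58 share under 10%. Among these 58, 28 were higher and 7 lower in RVO, beside 27.4% and 24.6% of all genes. Of the 57 tested in control eyes 33 were higher and 9 lower, beside 27.2% and 25.2%.

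Promoters of respiratory chain genes are known for binding sites of NRF1, of ETS factors such as GABP, of oestrogen-related receptors (ERR) and of YY1, and the hypoxia response element (HRE) is bound by hypoxia-inducible factor. RefSeq promoters (GRCm38.p6, 250 bases before to 50 after the start) were matched by symbol for 66 of the 83 members. Counted on both strands, the NRF1 core GCATGCG occurred in 16.7% of the 66 and in 4.01% of all 27025 genes, the ETS core CCGGAAG in 24.2% and 9.93%, the ERR core AAGGTCA in 12.1% and 5.38%, the YY1 core AAGATGG in 15.2% and 7.28% and the HRE core ACGTG in 24.2% and 21.8%. Among members higher in RVO than in untreated eyes, 7 of 29 held the NRF1 core and 9 of 29 the ETS core, and among those lower 1 of 7 held each. The ERR core was held by 5 of 29 and 1 of 7, the YY1 core by 5 of 29 and 0 of 7 and the HRE core by 8 of 29 and 0 of 7. Below are the 120 bases before the start for some of the members named above that hold a motif there. The sequences are given on the strand of the gene, with the match in capitals. Others, such as Ndufa3, Cox5a and Atp5g1 with the HRE core, are not shown. The NRF1 and ETS cores are shown before a subunit of each direction and the ERR and HRE cores before 1 that rose.
Sdhb, higher after laser treatment, NRF1 core, chr4:140961151-140961270, plus strand: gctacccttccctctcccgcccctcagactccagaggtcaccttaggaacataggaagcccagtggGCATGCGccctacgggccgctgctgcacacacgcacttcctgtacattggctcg
Ndufa6, lower, NRF1 core, chr15:82354292-82354411, minus strand: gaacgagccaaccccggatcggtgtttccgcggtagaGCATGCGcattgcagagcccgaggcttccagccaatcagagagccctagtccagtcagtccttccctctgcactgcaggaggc
Atp5e, higher, ETS core, chr2:174464102-174464221, minus strand: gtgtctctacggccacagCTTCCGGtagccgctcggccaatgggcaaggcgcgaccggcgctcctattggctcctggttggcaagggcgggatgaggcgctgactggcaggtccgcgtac
Uqcrh, lower, ETS core, chr4:116075071-116075190, minus strand: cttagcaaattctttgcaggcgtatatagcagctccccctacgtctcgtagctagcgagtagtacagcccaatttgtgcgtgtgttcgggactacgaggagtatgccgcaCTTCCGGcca
Atp5g3, higher, ERR core, chr2:73911327-73911446, minus strand: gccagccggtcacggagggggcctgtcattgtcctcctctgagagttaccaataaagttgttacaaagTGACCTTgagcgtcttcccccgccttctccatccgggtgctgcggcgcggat
Cox8b, highest in RVO eyes, HRE core, chr7:140900447-140900566, minus strand: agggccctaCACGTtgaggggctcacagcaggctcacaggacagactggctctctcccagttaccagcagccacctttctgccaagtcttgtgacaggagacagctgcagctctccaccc
The match begins 54 bases before the start in Sdhb, 83 in Ndufa6, 102 in Atp5e, 10 in Uqcrh, 52 in Atp5g3 and 111 in Cox8b. In Atp5e, Uqcrh, Atp5g3 and Cox8b the motif lies on the strand opposite to the gene. A match is a description of the sequence and not a measured binding site.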

How the data were processed

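Reads of 50 bases from stranded poly-A libraries were mapped by the authors to the mouse genome (Gencode vM11, GRCm38) with STAR 2.5.2b and counted per gene with featureCounts of Subread 1.5.1. The deposited table holds these raw counts by gene symbol for all 9 samples. How reads matching several genes were treated and whether the strand was used in counting is not given in the sources used here. Each comparison used its own 6 samples, with genes kept by filterByExpr and tested with edgeR 4.0.16 (R 4.3.3, TMM, quasi-likelihood, Benjamini-Hochberg adjustment over all genes tested), called under 0.01. DESeq2 1.42.0 was an alternative test. Other alternatives concerned scaling, filter, threshold, pooled fit, replicate block, single pools left out and per-sample trends with GC content and length of GENCODE vM21 transcripts (84 of 85 names matched), removed by splines with 4 degrees of freedom; counting only members that share under 10% of their 50-base words was added after seeing the data. The procedure was tested on simulated counts. The members, lists and tests were chosen with earlier results of these data known. Genes were named when they are core subunits or isoforms, have the lowest or highest change of a complex in a comparison, or were called against the direction of most called members of their complex; of the other lists, the first genes and the largest rise and fall. Of the genes so chosen, 2 are not reported here. Total counts of 12377572 to 28993921 make counting error small beside differences between pools except for the lowest genes. Columns not used numbered 0.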

Additional observations from a re-analysis of the deposited data

Results flagged for a closer look

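Cox4i2 stood out because the effect of laser treatment differed between RVO and control eyes by the test of the difference itself (log2 fold change 0.771, edgeR's quasi-likelihood test with Benjamini-Hochberg adjustment, adjusted p = 0.00758, higher in 3 of 3 RVO pools than in all control pools). Over 14 alternatives its adjusted p ranged from 6.31e-08 to 0.0507. No group had the 4 samples needed to look for single samples that lie apart.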

How the results depend on the processing

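With the trends of GC content and length removed, 14 members rose and 26 fell in RVO eyes against untreated ones, and 17 and 23 in control eyes. The shares of all genes were then 18.4% and 25.6%, and 13.7% and 26.2%. Among the members higher is Atp5o, which had no matched length and GC content and so kept its uncorrected values. Named members that turned negative in RVO eyes then had log2 fold changes of -0.762 (Cox4i1), -0.345 (Cox5b), -0.331 (Cox6a1), -0.11 (Cox6b1), -0.924 (Cox8a), -0.508 (Ndufs3), -0.356 (Ndufs7), -0.431 (Ndufs8), -0.03 (Ndufv1), -0.1 (Sdhb) and -0.095 (Uqcrc1). In control eyes these were -0.012 (Atp5a1), -0.52 (Cox4i1), -0.271 (Cox4i2), -0.241 (Cox5b), -0.306 (Cox6a1), -0.101 (Cox7a2), -0.605 (Cox8a), -0.174 (Ndufs7), -0.251 (Ndufs8), -0.183 (Sdhb) and -0.099 (Uqcrc1). The cause was not tested.

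With library size alone, 2 members were lower in RVO and 4 in control eyes against untreated ones. Between RVO and control eyes, DESeq2 called 3 higher and 1 lower, and a threshold of 0.05 gave 5 and 2. There, 2 were higher with library size alone, without a filter, with all 9 samples in one fit, and with the trends removed. Leaving out 1 pool gave 33 to 38 higher and 5 to 11 lower in RVO against untreated eyes, 35 to 43 and 9 to 11 in control eyes, and 0 to 3 and 0 to 3 between RVO and control eyes. All other alternatives kept the counts of members within 1.5 times of the values reported.

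The replicate number as a block gave 37 higher and 7 lower in RVO, and 45 and 11 in control eyes, and 0 of each between RVO and control eyes, where Cox4i2 had 0.768 (adjusted p = 0.0314). Together with the trends it gave 14 and 21, 17 and 23, and 0 and 0; in RVO eyes Cox4i1 then had -0.76, Cox5b -0.345, Cox6a1 -0.331, Cox6b1 -0.108, Cox8a -0.924, Ndufs3 -0.507, Ndufs7 -0.356, Ndufs8 -0.427, Ndufv1 -0.03, Sdhb -0.099 and Uqcrc1 -0.096. In control eyes Cox4i1 had -0.517, Cox4i2 -0.266, Cox5b -0.242, Cox7a2 -0.1, Ndufs7 -0.173, Ndufs8 -0.247 and Sdhb -0.184, and Atp5a1, Cox6a1, Cox8a and Uqcrc1 the values without the block. Deviations of samples with the same number had correlations from -0.142 to 0.0629. Those of RVO and control samples with different numbers ran from -0.182 to 0.209. With so few pools this cannot tell whether equal numbers mark pools of the same mice, which the labels do not say. Untreated samples had the lowest depth, which limits Cox6a2, Atp5g2 and Atp5l, of which the last had 5 to 17 counts.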
